A study of Homo sapiens with 28 samples.

Results

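Integrins are the cell surface receptors through which cells hold on to the extracellular matrix. The members described here are 10 genes that encode integrin subunits, the alpha chains ITGA2, ITGA3, ITGA4, ITGA5, ITGA6 and ITGAV and the beta chains ITGB1, ITGB3, ITGB5 and ITGB8. They were chosen by name among the 22357 genes that the array's annotation names, with the brightest probe set standing for each gene. Each of the 10 had 1 probe set that names it alone. Another probe set that names ITGB3 together with EFCAB13 was left out.

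CHL-1 is an established line of human melanoma cells obtained from ATCC and described by the submitters as sensitive to BAY1238097. That compound inhibits the bromodomains of the BET proteins, which bind acetylated histones and help to start and elongate transcription. There were 6 groups on 28 arrays. DMSO, the solvent, was given for 4 h (4 arrays) or 24 h (4 arrays). BAY1238097 was given at 75 nM, named in the series as the IC50, or at 468 nM, named as the IC90, each for 4 h or 24 h (5 arrays each). All arrays therefore come from 1 line, and the labels name no separate cultures behind the arrays of a group. The p-values below are therefore set against the spread among these arrays alone, and that spread may be technical.

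An integrin is a pair of 1 alpha and 1 beta subunit, and the pair decides the ligand. ITGB1 is the partner of many alpha subunits. With ITGA2 it binds collagen, with ITGA3 or ITGA6 laminin, with ITGA5 fibronectin, and with ITGA4 fibronectin and the endothelial protein VCAM1. ITGAV pairs with ITGB1, ITGB3, ITGB5 or ITGB8. Several ITGAV pairs bind vitronectin, and the pair with ITGB8 is known for activating latent TGF-beta. In melanoma, integrins are studied for their part in migration, invasion and survival on matrix.

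Values are log2 intensities of RMA-summarised probe sets. A difference of 1 is a factor of 2, and levels of different probe sets cannot be set against each other. Differences were tested with limma in a fit over all 9285 genes that exceeded a log2 value of 5 on 4 or more arrays, and a gene was called changed at a Benjamini-Hochberg adjusted p below 0.05. Of the 10 members 8 passed this filter. ITGA3 ranged from 1.36 to 3.74 over the 28 arrays and ITGA5 from 1.46 to 3.56, so both fell below the filter. In the fit with no filter they were at 0.37 ± 0.35 (SE; limma adjusted p = 0.552) and -0.54 ± 0.31 (adjusted p = 0.277) with 468 nM at 24 h. ITGB1 was above 5 on 25 arrays and ITGB3 on 13, close to the filter. As a check that the compound acted, HEXIM1, a gene commonly followed to see BET inhibitors act, stood at 7.07 ± 0.21 (SD, n = 4) with DMSO and 8.73 ± 0.13 (SD, n = 5) with 468 nM at 4 h. MYC, an oncogene that BET inhibitors often lower, changed by -1.07 ± 0.13 (SE; limma adjusted p = 2.59e-06) there. Both genes were also called in these directions at 468 nM and 24 h. At 75 nM and 4 h HEXIM1 rose by 0.85 ± 0.13 (adjusted p = 6.28e-04), and MYC was not called (-0.41, adjusted p = 0.222). At 75 nM and 24 h neither was called (HEXIM1 0.32, adjusted p = 0.201, and MYC -0.01, adjusted p = 0.985). For that group the check did not show that the compound acted. Of 7 melanocyte lineage markers on the array, 2 passed the filter, SOX10 and S100B, while MITF, MLANA, PMEL, TYR and TYRP1 had means of 1.05 to 2.95. Of 6 keratinocyte and 7 endothelial markers 0 passed. FBLN1 was the 1 of 6 fibroblast markers and CD68 the 1 of 7 leukocyte markers that did.

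The promoters of the 5 members that changed in the tests below are shown because 3 of these genes rose together and 2 fell. Each stretch is the 250 bases before the transcription start in RefSeq (GRCh38.p14), read 5′ to 3′ on the gene's strand. Where RefSeq gives several starts, the one with most CpG pairs is shown. Capitals mark the letters searched on both strands, which were TGANTCA (an AP-1 motif), CACGTG (the E-box that MYC binds), GGGCGG (the GC box), GGAATG (a TEAD motif) and TATAAA.
ITGA4 (chr2:181457136-181457385, plus strand): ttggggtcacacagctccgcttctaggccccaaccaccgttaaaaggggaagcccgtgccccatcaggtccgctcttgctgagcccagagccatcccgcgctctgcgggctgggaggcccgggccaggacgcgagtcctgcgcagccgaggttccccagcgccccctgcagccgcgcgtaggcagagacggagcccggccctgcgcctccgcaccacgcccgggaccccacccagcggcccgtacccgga
ITGA6 (chr2:172427336-172427585, plus strand): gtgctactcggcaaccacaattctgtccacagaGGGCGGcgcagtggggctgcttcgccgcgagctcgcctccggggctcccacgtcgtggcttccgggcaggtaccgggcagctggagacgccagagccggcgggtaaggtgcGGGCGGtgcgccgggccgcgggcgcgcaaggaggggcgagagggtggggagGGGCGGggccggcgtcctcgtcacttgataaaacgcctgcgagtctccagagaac
ITGAV (chr2:186589806-186590055, plus strand): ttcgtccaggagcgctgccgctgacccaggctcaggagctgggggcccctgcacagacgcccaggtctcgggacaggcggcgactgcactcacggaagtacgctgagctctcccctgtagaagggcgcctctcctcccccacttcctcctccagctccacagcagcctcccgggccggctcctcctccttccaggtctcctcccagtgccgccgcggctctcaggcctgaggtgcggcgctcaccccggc
ITGB1 (chr10:32958231-32958480, minus strand): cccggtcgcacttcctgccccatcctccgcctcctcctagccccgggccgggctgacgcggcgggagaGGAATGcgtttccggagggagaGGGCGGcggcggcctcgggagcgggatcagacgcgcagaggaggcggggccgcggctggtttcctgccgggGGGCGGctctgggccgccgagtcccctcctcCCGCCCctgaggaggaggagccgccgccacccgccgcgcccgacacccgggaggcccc
ITGB8 (chr7:20330650-20330899, plus strand): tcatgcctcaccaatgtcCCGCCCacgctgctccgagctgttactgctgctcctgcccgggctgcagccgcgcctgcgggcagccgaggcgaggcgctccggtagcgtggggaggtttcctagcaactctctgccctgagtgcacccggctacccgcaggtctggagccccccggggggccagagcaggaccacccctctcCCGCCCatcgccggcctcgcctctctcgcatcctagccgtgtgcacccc
The 5 stretches held 70.8% to 78.4% G and C and 18 to 32 CpG pairs, which the choice by CpG pairs favours. Over all 35116 promoters the medians were 58.0% and 11 CpG pairs. The same choice favours GGGCGG, which holds a CpG pair. The windows of other starts, not shown, held 50.8% G and C with 8 CpG pairs for ITGA6, 40.8% with 1 for ITGAV and 41.6% with 4 for ITGB1. GGGCGG occurred in ITGA6 (3 times), ITGB1 (3) and ITGB8 (2) and not in ITGA4 or ITGAV, and 42.6% of 35116 promoters of this length hold it. GGAATG occurred once, in ITGB1, and is in 11.9% of promoters. The AP-1 motif, found in 6.57% of all promoters, the E-box, found in 6.34%, and TATAAA, found in 10.7%, were in none of the 5 windows shown. Of the windows not shown, that of ITGA6 held 1 E-box and 1 TATAAA, and that of ITGB1 held TATAAA 3 times. GGGCGG was thus present in genes that rose and in 1 that fell. The promoter table matched 8 of the 10 members, all but ITGA3 and ITGB3.

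At 468 nM and 24 h the integrin set split. ITGA4 fell 2.44-fold, while ITGAV, ITGA6 and ITGB1 rose by factors of 1.57, 1.47 and 1.34. The remaining 4 tested members, ITGA2, ITGB3, ITGB5 and ITGB8, did not pass the test. In all, 3 of 8 tested members were called higher and 1 lower. Among all tested genes 45.6% were called in this comparison, 20.4% higher and 25.1% lower, so the share of members called, 50%, was near that background. The median change of the 8 members was 0.19 and that of all tested genes -0.02. In bulk RNA of 1 line, fewer cells with a transcript and less of it per cell cannot be told apart. On the same arrays the summed level of the 7 melanocyte lineage markers (log2) was 9.94 to 10.64, against 9.55 to 9.93 with DMSO, and that of the 7 leukocyte markers 5.48 to 5.96 against 6.04 to 6.11. SOX10 (mean 9.55) had the highest mean in the first sum and CD68 (4.69) in the second. All arrays come from 1 line, so these sums are levels of marker genes and cannot be read as shares of cell types. The part of these sums in the integrin values was not tested.

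ITGA4, the alpha chain of the receptor for VCAM1, read 7.10, 6.72, 6.26 and 6.30 on the DMSO arrays at 24 h. With 75 nM it read 6.42, 6.19, 6.27, 6.17 and 6.32, and with 468 nM 5.27, 5.04, 5.44, 5.35 and 5.43. All 468 nM arrays lay below every array of the other groups. The log2 change was -1.29 ± 0.14 (SE; limma adjusted p = 3.11e-08) against DMSO and -0.97 ± 0.13 (adjusted p = 2.43e-06) against 75 nM. At 75 nM and 24 h the difference from DMSO was -0.32 ± 0.14 (adjusted p = 0.24). Only 4.84% of tested genes changed at least as much in size as ITGA4 at 468 nM and 24 h. For the 3 members called higher there the share was larger, 22.76% for ITGAV, 28.72% for ITGA6 and 41.1% for ITGB1. At 4 h the means of ITGA4 were 6.62 with DMSO, 6.51 with 75 nM and 6.46 with 468 nM, and the ranges overlapped. The 468 nM effect was lower at 24 h than at 4 h by a difference of -1.13 ± 0.19 (adjusted p = 1.36e-04). In the order of the 6 group means, the neighbours from DMSO at 4 h down to 75 nM at 24 h overlapped, and 468 nM at 24 h stood alone.

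ITGAV, the vitronectin receptor's alpha chain, read 10.32, 10.11, 10.23 and 10.41 with DMSO at 24 h. It read 10.45, 10.58, 10.45, 10.18 and 10.65 with 75 nM, and 10.95, 11.10, 10.78, 10.63 and 11.16 with 468 nM. The 468 nM arrays did not overlap those of DMSO but touched the range of 75 nM. The log2 change was 0.65 ± 0.15 (limma adjusted p = 9.69e-04) against DMSO and 0.47 ± 0.14 (adjusted p = 0.0143) against 75 nM. At 4 h the change at 468 nM was 0.05 ± 0.15 (adjusted p = 0.898). The 2 times differed by 0.60 ± 0.21 (adjusted p = 0.0421), a call that was lost without DMSO 4 h replicate 2 (adjusted p = 0.0875) or 4 (0.0969) or DMSO 24 h replicate 1 (0.0522), 2 (0.0841) or 3 (0.068). It was also lost without 468 nM 4 h replicate 2 (0.0816) or 4 (0.0791) or 468 nM 24 h replicate 1 (0.0569), 2 (0.0684) or 5 (0.0752), with no filter on dim genes (0.125), after another quantile normalization (0.0805) and with only the groups compared (0.0645). The range over its 26 alternatives was 0.00519 to 0.125. The call between doses was lost with no filter on dim genes (0.0501).

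ITGA6, a laminin-binding alpha chain, moved with ITGAV over the arrays, with a Pearson correlation of 0.89 over 28 arrays that share treatment and normalization. It read 9.72, 9.39, 9.44 and 9.45 with DMSO at 24 h, and 10.05, 10.36, 9.89, 9.93 and 10.05 with 468 nM, with no overlap. The 75 nM arrays, from 9.63 to 9.93, overlapped both. Against DMSO the log2 change was 0.56 ± 0.11 (limma adjusted p = 2.51e-04) at 468 nM and 0.32 ± 0.11 (adjusted p = 0.16) at 75 nM. The doses differed by 0.24 ± 0.11 (adjusted p = 0.0943), with an interval of 0.02 to 0.45. At 4 h the change at 468 nM was 0.02 ± 0.11 (adjusted p = 0.949), and the 2 times differed by 0.53 ± 0.16 (adjusted p = 0.016, or 0.0654 with no filter on dim genes, the highest of 26 alternatives from 0.00542). After a shift by reference genes the 4 h values of ITGA6 and ITGAV were -0.11 and -0.08, so their sign at 4 h depends on the scaling. Among these reference genes POLR2A was itself higher at 468 nM and 4 h (0.78 ± 0.18, limma adjusted p = 0.00419), and the shift carries that change.

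ITGB1, the common beta chain, read 5.31, 5.51, 5.36 and 5.04 with DMSO at 24 h and no more than 5.55 on any of the 5 arrays with 75 nM. With 468 nM it read 5.64, 5.91, 5.67, 5.74 and 5.66, above every array of both other groups at that time. Its log2 change was 0.42 ± 0.12 (limma adjusted p = 0.00495) against DMSO and 0.39 ± 0.11 (adjusted p = 0.00798) against 75 nM. At 4 h the change at 468 nM was 0.18 ± 0.12 (adjusted p = 0.397), and the difference between times, 0.24 ± 0.17 (adjusted p = 0.319), did not pass. Thus the transcripts for the ITGA4-ITGB1 receptor moved in opposite directions at 468 nM and 24 h, and those for ITGA6-ITGB1 and ITGAV-ITGB1 in the same one. Protein and pairing of the subunits were not measured. Groups that did not overlap at 468 nM and 24 h were found for 4 of the 8 tested members and for 30.1% of all tested genes.

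**Figure D1:**
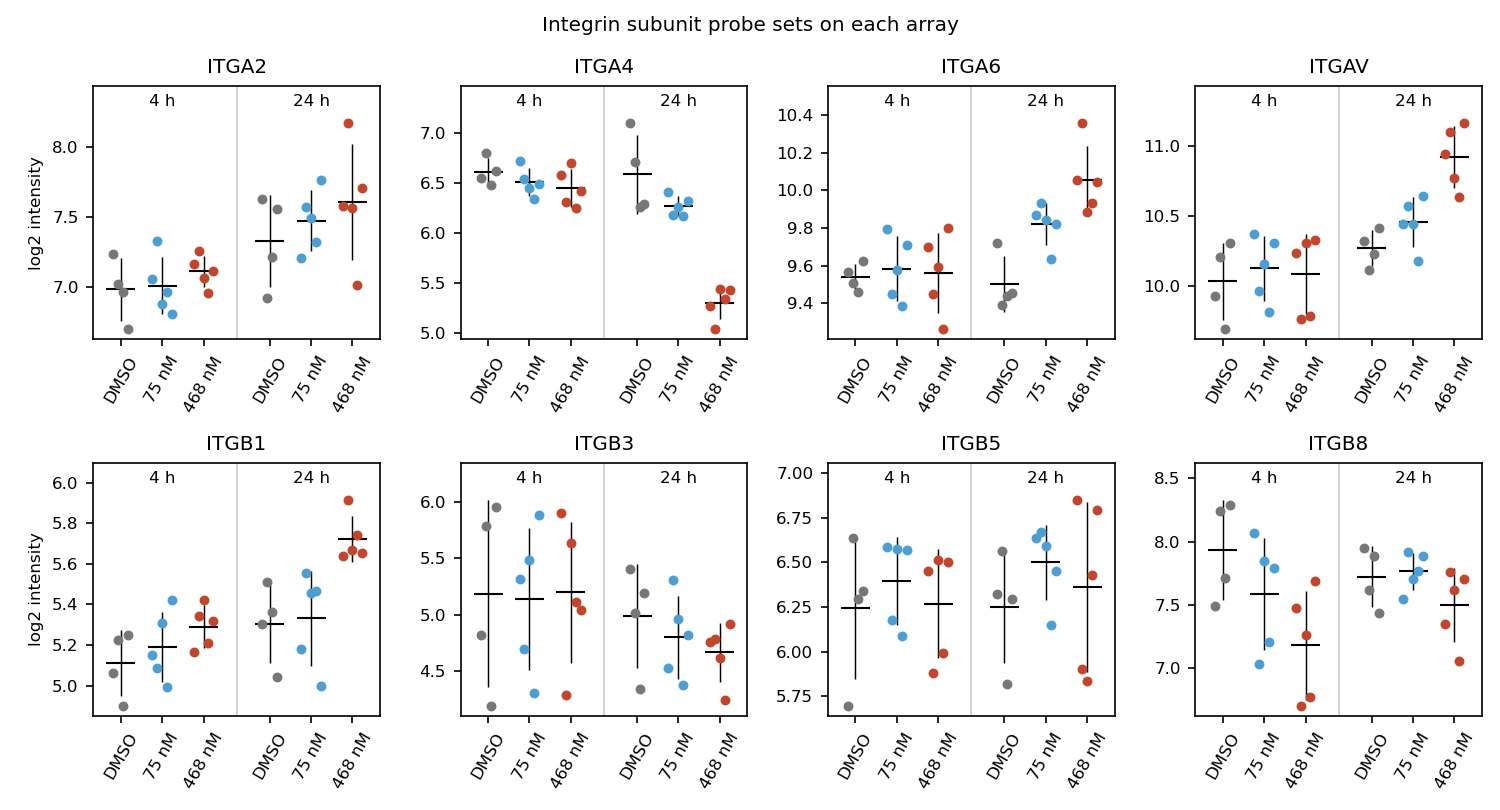
Log2 intensity (vertical axes, 1 scale per gene) of the 8 tested integrin subunit genes on each array, by dose and time. Points are arrays (4 for DMSO, 5 for each dose), horizontal bars are group means and vertical bars are SD. ITGA4 at 468 nM and 24 h, with arrays from 5.04 to 5.44, stands below all other groups, whereas ITGAV, ITGA6 and ITGB1 have their highest means there.

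At 4 h a different subunit led. ITGB8, the ITGAV partner that activates latent TGF-beta, was the 1 member called at 468 nM and 4 h, as lower, where 10.9% of all tested genes were called and 6.95% were lower. It read 7.49, 8.24, 7.71 and 8.29 with DMSO, 8.07, 7.03, 7.84, 7.20 and 7.79 with 75 nM, and 7.47, 6.70, 7.26, 6.77 and 7.69 with 468 nM. The means were 7.93, 7.59 and 7.18, and the arrays of the 3 groups overlapped. The log2 change was -0.76 ± 0.22 (limma adjusted p = 0.0239) at 468 nM, a fall of 1.69-fold, and -0.35 ± 0.22 (adjusted p = 0.747) at 75 nM. The difference between doses was -0.41 ± 0.21 (adjusted p = 0.479). The call was lost without DMSO replicate 2 (adjusted p = 0.096) or 4 (0.0986), on leaving out 468 nM replicate 2 (0.0741) or 4 (0.0725), with no filter on dim genes (0.0737) and with only the 2 groups compared (0.074). The range over its 17 alternatives was 0.0104 to 0.0986. On these arrays the summed level of the melanocyte lineage markers (log2) was 9.13 to 9.55 with 468 nM and 9.71 to 9.89 with DMSO, with no overlap, and its part in the ITGB8 value was not tested.

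At 24 h ITGB8 was at -0.23 ± 0.22 (limma adjusted p = 0.418) with 468 nM, with arrays of 7.06 to 7.76 against 7.43 to 7.95 with DMSO. The difference of the 468 nM effect between the times was 0.53 ± 0.31 (adjusted p = 0.228), so a return towards the DMSO level was not shown. No other member passed at 468 nM and 4 h. Their changes ran from -0.16 (ITGA4) to 0.18 (ITGB1).

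ITGA2, the collagen receptor's alpha chain, read 7.58, 8.17, 7.57, 7.01 and 7.71 at 468 nM and 24 h and 7.63, 6.92, 7.22 and 7.56 with DMSO. The groups overlapped, and the change of 0.28 ± 0.17 (limma adjusted p = 0.199) did not pass. It did so without 468 nM replicate 4, the lowest array of its group (0.43, adjusted p = 0.0325, in a range of 0.0325 to 0.563). In DMSO, ITGA2 had a mean of 6.98 at 4 h and 7.33 at 24 h, a difference of 0.35 ± 0.18 (adjusted p = 0.253). ITGB5, a partner of ITGAV in vitronectin binding, had means of 6.25 with DMSO and 6.36 with 468 nM at 24 h and a change of 0.11 ± 0.21 (adjusted p = 0.695) at 468 nM and 24 h. ITGB3, another ITGAV partner known from invasive melanoma, had means of 4.67 to 5.20 with arrays from 4.19 to 5.95. Its change at 468 nM and 24 h was -0.32 ± 0.34 (adjusted p = 0.463), with an interval of -1.03 to 0.38. The probe set that names both EFCAB13 and ITGB3 went the other way, from a mean of 4.08 with DMSO to 4.93, and cannot be assigned to either gene.

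At 75 nM, 0 of the 8 tested members were called at either time by limma. Of all tested genes 0.679% were called at 4 h and 0.872% at 24 h. Of the genes used to check that the compound acted, HEXIM1 was called at this dose only at 4 h and MYC at neither time. At an unadjusted p below 0.05 there were 0 members at 4 h and 2 at 24 h, ITGA6 and ITGA4, and limma with an intensity trend also called 0. In DMSO between 4 h and 24 h, 0 members were called, 0 had an unadjusted p below 0.05 and 0 were called with the trend, where 5.23% of all tested genes were called. Between the doses, 0 members were called at 4 h (0 with an unadjusted p below 0.05, 0 with the trend) and 3 at 24 h, ITGA4 lower and ITGAV and ITGB1 higher. Of all tested genes 2.56% were called at 4 h and 30.8% at 24 h, 13.4% higher and 17.4% lower. The 468 nM effect differed between 24 h and 4 h for 3 members, ITGA4, ITGA6 and ITGAV, and for 23.5% of all tested genes, 10.8% higher and 12.7% lower. The dose and time comparisons share DMSO, 75 nM or 468 nM arrays, so they are not independent of each other. The calls against DMSO and against 75 nM at 24 h and those between the times all use the same 468 nM arrays of 24 h.

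**Figure D2:**
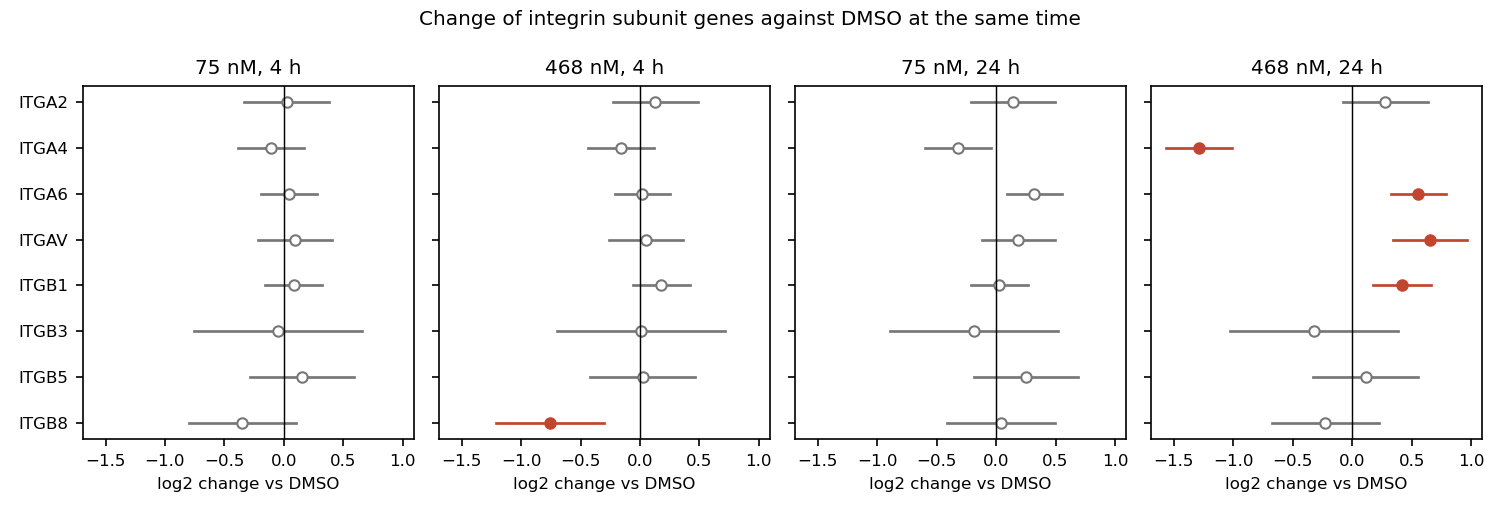
Log2 change (horizontal axis) of the 8 tested members against DMSO at the same time, for each dose and time. Bars are 95% intervals from the limma fit, and filled red points have an adjusted p below 0.05. At 75 nM 0 members pass, at 468 nM and 4 h ITGB8 alone (-0.76), and at 468 nM and 24 h ITGA4 (-1.29), ITGAV (0.65), ITGA6 (0.56) and ITGB1 (0.42).

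The genes whose values followed those of ITGA4 most closely over the 28 arrays, of all tested genes, were POGLUT3 (Pearson r = 0.96), EMP2 (0.95) and BCAT1 (0.95). For ITGAV they were KDM5B (0.96), SGCB (0.94) and FIG4 (0.94). POGLUT3, EMP2 and BCAT1 had log2 changes of -0.94, -1.73 and -2.82 at 468 nM and 24 h, and KDM5B, SGCB and FIG4 of 0.99, 0.56 and 1.22. These correlations describe arrays that share treatment and normalization.

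Of the 16 other integrin subunit genes, 15 had a probe set of their own and 3 passed the filter. ITGA9, which pairs with ITGB1 and binds tenascin, had arrays of 7.82 to 8.66 with DMSO at 24 h and 7.09 to 7.97 with 468 nM, which overlapped. Its log2 change was -0.69 ± 0.25 (limma adjusted p = 0.0256). The call was lost without DMSO replicate 1 (0.0956) or 2 (0.0634), without 468 nM replicate 3 (0.0609) or 4 (0.0728), with no filter on dim genes (0.067) and after the shift by reference genes (0.0575). ITGA7, a laminin-binding chain of muscle, was at 0.23 ± 0.21 (adjusted p = 0.383). ITGB4, the partner of ITGA6 in hemidesmosomes, was at -0.21 ± 0.21 (adjusted p = 0.43). The chains known from leukocytes and platelets were below the filter, with group means of 0.96 to 2.53 for ITGAL, ITGAM, ITGAX, ITGB2 and ITGA2B, 1.22 to 2.20 for ITGAD and 2.22 to 3.03 for ITGAE, and a mean over all arrays of 3.34 for ITGB7. In the fit with no filter, ITGAE was at -0.80 ± 0.23 (adjusted p = 0.0139) and ITGAD at 0.98 ± 0.32 (adjusted p = 0.0327) with 468 nM at 24 h, at signals where sizes are uncertain.

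Of 22 tested ligands of integrins, 7 were higher and 2 lower at 468 nM and 24 h, with a median of 0.01. The share called, 40.9%, was near the 45.6% of all tested genes. EDIL3, a secreted ligand of ITGAV receptors, rose from 4.30 ± 0.63 (SD, n = 4) to 5.75 ± 0.13 (SD, n = 5), a log2 change of 1.45 ± 0.30 (limma adjusted p = 2.97e-04). The DMSO mean lies under the filter value of 5, so the size of this rise is uncertain. TGFB1, whose latent form binds ITGAV receptors, rose by 0.84 ± 0.12 (adjusted p = 1.71e-06), from arrays of 8.42 to 8.91 to arrays of 9.28 to 9.91. LAMB2, a laminin beta chain, rose by 0.81 ± 0.17 (adjusted p = 4.59e-04). LAMC1, a laminin gamma chain (0.78 ± 0.16, adjusted p = 2.62e-04), and LAMA5, a laminin alpha chain (0.63 ± 0.17, adjusted p = 0.00303), rose too and were singled out after their values were seen. LAMB1 stood at 0.03 and LAMA4 at -0.23 without passing. The laminin receptor gene ITGA6 was higher on the same arrays, where 20.4% of all tested genes were called higher. A link between the laminin genes and ITGA6 was not tested.

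THBS1, thrombospondin, a matrix protein that binds integrins and CD47, fell at 24 h, where the mean was 4.58 ± 0.09 (SD, n = 4) in DMSO and 2.89 ± 0.44 (SD, n = 5) at 468 nM, with a log2 change of -1.69 ± 0.25 (limma adjusted p = 4.73e-06). These levels lie under the filter value of 5, so the size of the fall is uncertain. In DMSO alone THBS1 changed by -1.34 ± 0.26 (limma adjusted p = 0.00409) from 4 h to 24 h. TNR, a tenascin, was at -1.23 ± 0.47 (adjusted p = 0.0352), a call lost without DMSO replicate 3 (0.161) or 4 (0.0554), 468 nM replicate 4 (0.101) or the filter (0.0843). FN1, fibronectin, at 0.41, and the 5 tested collagen genes COL4A1, COL4A2, COL5A2, COL6A1 and COL6A2, at -0.40 to 0.02, did not pass. At 4 h and 468 nM, 1 of 22 ligands was called, or 4.55% against 10.9% of all tested genes. CCN1, a matricellular protein and integrin ligand, rose by 0.91 ± 0.17 (adjusted p = 5.86e-04), with arrays of 7.34 to 7.61 against 6.47 to 6.86. At 24 h it was at -0.22 (not called), and without 468 nM replicate 4 at -0.38 (adjusted p = 0.0464). CCN1 also changed in DMSO alone from 4 h to 24 h, by -0.92 ± 0.18 (adjusted p = 0.00394).

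Inside the cell, talins and kindlins activate integrins, and adaptors tie them to actin. Of 35 tested genes of this list, 9 were higher and 9 lower at 468 nM and 24 h, with a median of 0.07. The share called, 51.4%, was again near the background of 45.6%. VCL, vinculin, which links talin to actin, rose by 0.71 ± 0.11 (limma adjusted p = 1.12e-05) at 24 h and by 0.53 ± 0.11 (adjusted p = 0.0018) at 4 h. PEAK1, a focal adhesion pseudokinase (0.77 ± 0.22, adjusted p = 0.00621), and ELMO2, which acts with DOCK1 on Rac (0.70 ± 0.12, adjusted p = 2.72e-05), rose at 24 h. TRIP6, a zyxin family adaptor, fell by 1.75 ± 0.17 on the log2 scale at 24 h (adjusted p = 1.41e-08), from arrays of 7.15 to 7.40 to arrays of 4.90 to 5.90. At 4 h it stood at -0.62 ± 0.17 (adjusted p = 0.0184), a call lost without DMSO replicate 2 (0.0662) or 4 (0.0934) or without the filter (0.0608). SORBS3, vinexin, which binds vinculin (-0.89 ± 0.15, adjusted p = 1.98e-05), and TNS2, a tensin (-1.20 ± 0.33, adjusted p = 0.00497), fell at 24 h. The talin TLN1 (0.25), the kindlin FERMT2 (0.19), PTK2, focal adhesion kinase (0.07), PXN, paxillin (-0.16), and ILK (0.15) did not pass. SRC (-0.61), PARVB (-0.45), FYN (0.68) and PARVA (0.45) were among the other genes of the list that did. At 75 nM and 24 h, SRC was the 1 gene of the 35 called (-0.70 ± 0.17, adjusted p = 0.0441). That was 2.86% against 0.872% of all tested genes, and the call was lost under 10 of 16 alternatives. At 4 h 3 of the 35 were called, or 8.57% against 10.9% of all tested genes. PDLIM7 was the other gene called higher (0.63 ± 0.16, adjusted p = 0.0105), a call lost without DMSO replicate 2 (0.0695).

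Of the tested membrane partners, inhibitors and traffic factors of integrins, 6 of 18 were higher and 2 lower at 468 nM and 24 h, with a median of 0.16, so that 44.4% were called against 45.6% of all tested genes. CD47, a partner of ITGB3 receptors, rose by 0.54 ± 0.17 (limma adjusted p = 0.0122). RAB4A, a GTPase of rapid integrin recycling, rose by 0.52 ± 0.13 (adjusted p = 0.0022), and CD151, a tetraspanin bound to laminin-binding integrins, by 0.43 ± 0.12 (adjusted p = 0.00398). PLAUR, the urokinase receptor, was at -1.24 ± 0.49 (adjusted p = 0.0406), and CD9, a tetraspanin, at -0.66 ± 0.25 (adjusted p = 0.0347). From 4 h to 24 h in DMSO alone, CD9 rose by 1.15 ± 0.27 (adjusted p = 0.0138). The PLAUR call was lost when DMSO replicate 1 (0.0763), 2 (0.092) or 4 (0.0856) was left out, and likewise 468 nM replicate 2 (0.0721), 3 (0.058) or 4 (0.0876). The CD9 call was lost on leaving out DMSO replicate 1 (0.13) or 4 (0.0929), and likewise 468 nM replicate 1 (0.0834) or 5 (0.111). Both were also lost with no filter on dim genes (0.095 for PLAUR, 0.0864 for CD9), PLAUR after the shift by reference genes (0.0563) and CD9 with only the groups compared (0.0717). At 4 h, 1 of 18 was higher, RAB21 (0.37 ± 0.11, adjusted p = 0.0326), and 1 lower, DAB2 (-0.60 ± 0.17, adjusted p = 0.019), together 11.1% against 10.9% of all tested genes. RAB21 missed the threshold without DMSO replicate 2 (0.0862), 3 (0.0825) or 4 (0.0633), and likewise 468 nM replicate 1 (0.0667), 2 (0.0737) or 4 (0.0704). For DAB2 these arrays were DMSO replicate 1 (0.085), 2 (0.0648) or 3 (0.0609) and 468 nM replicate 5 (0.0652). With no filter they were at 0.118 and 0.0637, RAB21 was at 0.172 after the shift by reference genes, and DAB2 at 0.0873 with only the groups compared.

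**Figure D3:**
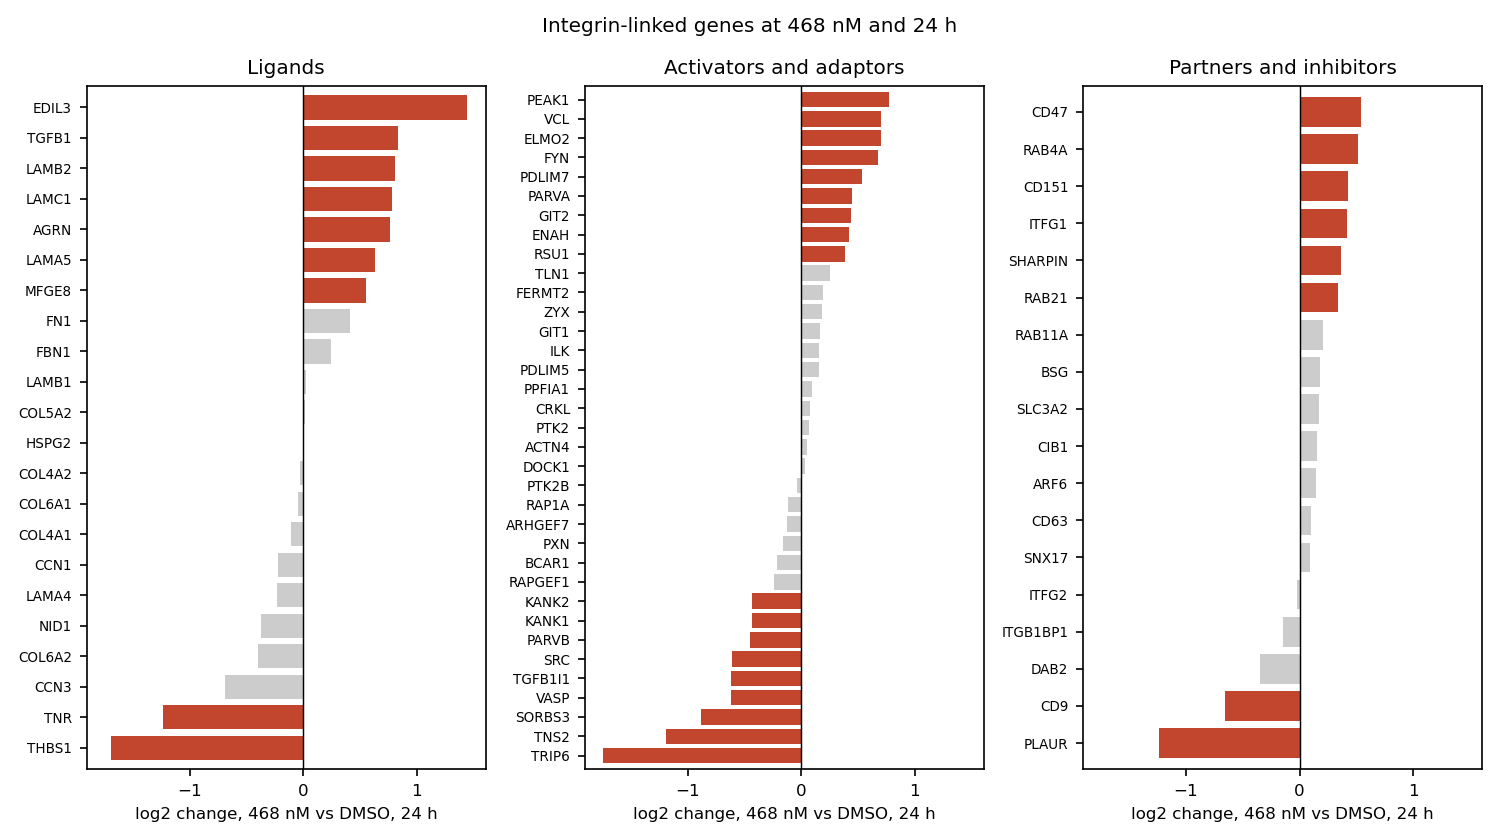
Log2 change at 468 nM against DMSO at 24 h (horizontal axes) of every tested gene of 3 lists, the ligands (22 genes), the activators and adaptors (35) and the partners and inhibitors (18). Red bars have a limma adjusted p below 0.05 and grey bars do not. Each list holds genes called in both directions, from EDIL3 (1.45) to THBS1 (-1.69) among the ligands and from PEAK1 (0.77) to TRIP6 (-1.75) among the adaptors.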

How the data were processed

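Gene expression was measured on 28 Affymetrix arrays. Per the submitters' processing notes the deposited intensity values were made with RMA, which corrects background, gives all arrays 1 distribution and summarises each probe set. Its version and a genome build were not given in the sources used here. The authors deposited 53617 probe sets on a linear scale, and these were transformed to log2. Array medians lay between 2.44 and 2.49, and a shift common to most RNAs cannot show on this scale. Probe sets were named from the platform annotation table, with 23871 naming 1 gene, 1842 several and 27904 not listed there, and symbols were updated through RefSeq gene IDs (GRCh38.p14).

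Linear models with 6 group means were fitted with limma 3.58.1 in R 4.3.3 (22 residual and 3.84 prior degrees of freedom), with Benjamini-Hochberg adjustment over the 9285 genes tested. Tables were prepared with Python 3.11.15, and the fit was tested on simulated data. The number of arrays limits the precision. Alternatives were other filters, another normalization, a shift by reference genes, other fits and leaving out each array. The members and lists were chosen with earlier results of these data known. Named were all members, other integrin subunits above the filter, and up to 3 called genes of each list in each direction at 468 nM, besides the genes most like ITGA4 and ITGAV. LAMC1, LAMA5, SRC, FYN, PARVA, PARVB and the ligand and adaptor genes given as not passing were chosen after their values were seen.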

Additional observations from a re-analysis of the deposited data

Results flagged for a closer look

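For 3 members the effect of 468 nM differed between the times by a test of the difference itself, limma's interaction term over all tested genes. ITGA4 was lower at 24 h than at 4 h relative to DMSO, by a log2 difference of -1.13 (adjusted p = 1.36e-04). ITGA6 was relatively higher at 24 h by 0.53 (adjusted p = 0.016), and ITGAV by 0.60 (adjusted p = 0.0421), a value that 10 single arrays could each take past the threshold. In this comparison 23.5% of all tested genes were called. Of 60 sets of arrays looked at, 10 members in 6 groups, 0 held a lone array far from the rest.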

How the results depend on the processing

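Of 1136 member values under the alternatives, 1113 kept their side of the threshold, 21 lost the call and 2 gained it. Of these values 72 changed sign, 0 of them called before or after, and each at most 0.198 in size in the report's fit. Most member results were not called in the report's fit and so had no call to lose. The losses included 13 of 26 alternatives for ITGAV between the times and 6 of 17 for ITGB8 at 468 nM and 4 h. Of 940 values of other named genes, 880 kept their side, 55 lost the call, 5 gained it and 31, 0 of them called, changed sign. With no filter on dim genes, the genes called numbered 28 at 75 nM and 4 h (63 in the report's fit), 18 at 75 nM and 24 h (81), 123 between doses at 4 h (238) and 103 in DMSO over time (486), and the members called 0 at 468 nM and 4 h (1) and 1 between the times (3). With only the groups compared these counts were 31 at 75 nM and 4 h, 52 at 75 nM and 24 h and 113 in DMSO over time, with 0 members at 468 nM and 4 h. With a filter at log2 above 7, 616 genes were called at 468 nM and 4 h (1013) and 2772 at 24 h (4231), with 2 members at 24 h (4) and 1 between doses at 24 h (3), since ITGA4 and ITGB1 were not tested there.

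Leaving out each array gave 39 to 50 genes at 75 nM and 4 h, 779 to 943 at 468 nM and 4 h, 41 to 87 at 75 nM and 24 h and 201 to 548 in DMSO over time. Members called ranged from 0 to 1 at 468 nM and 4 h, from 4 to 5 at 468 nM and 24 h, and from 2 to 3 between the times. A shift by 9 reference genes moved the median of all genes to -0.16 at 468 nM and 4 h, where calls became 209 higher and 1202 lower (368 and 645), to -0.11 between doses at 4 h (55 and 208, with 133 lower before) and to 0.17 between the times (1527 and 695, from 1005 and 1179). The splits became 1434 and 1194 between doses at 24 h (1246 and 1614), 312 and 91 in DMSO over time (244 and 242), 14 and 45 at 75 nM and 24 h (37 and 44), and 18 and 28 at 75 nM and 4 h (31 and 32). Some reference genes were themselves called at 468 nM, so the shift is not a neutral scale. POLR2A was higher at both times. At 24 h GUSB was also higher, and PGK1, TBP and HPRT1 were lower.

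Title codes fall into 5 sets, used as a replicate block. In the labels the arrays of a set share only a code, and what a set stands for is not given. In the values, part of the spread was shared within sets. Of 66 pairs of arrays within a set 33 deviated together with a correlation above 0.1, and 22 of 28 arrays correlated best with an array of their own set. The report's fit has no term for the sets. The replicate block gave 234 genes at 75 nM and 24 h and 908 in DMSO over time, and ITGA6 between doses at 24 h reached an adjusted p of 0.0475. With the block ITGB8 at 468 nM and 4 h was at -0.78 (adjusted p = 0.0146), and in the 4 sets with DMSO its 4 h differences were -0.98 to -0.61 at 468 nM and -0.51 to -0.40 at 75 nM. Signal near the filter limits ITGB1 and ITGB3, and ITGA4 with 468 nM at 24 h.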
